A study of Mus musculus with 11 samples.

Results

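This account concerns 9 transporter genes of the kidney proximal tubule: the organic cation carriers Slc22a2 and Slc47a1, the carnitine and zwitterion carriers Slc22a5 and Slc22a4, and the efflux pumps Abcb1a, Abcb1b, Abcc2, Abcc4 and Abcg2. They were chosen by name, out of 22180 genes with a probe set annotated to 1 gene symbol, and each of the 9 had exactly 1 such probe set, so no choice between probe sets arose. Expression was measured by microarray in S3 proximal tubules of 129/SvEv mice, with 6 arrays from wild-type (WT) mice and 5 from mice labelled THP -/-, which lack Tamm-Horsfall protein (uromodulin, gene Umod). By the labels, batch 1 comprises 5 wild-type with 3 knockout arrays, and batch 2 only 1 wild-type with 2 knockout arrays. They give no age, sex, treatment or design of the deleted allele, and leave unsaid whether arrays stand for different mice, so that the p-values rest on array-to-array spread that may be technical. The design asks which S3 transcripts change in mice without uromodulin.

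Proximal tubule cells clear positively charged drugs and metabolites from blood to urine in a relay. OCT2, the product of Slc22a2, takes organic cations up across the basolateral membrane, driven by the membrane potential, and MATE1, the product of Slc47a1, exchanges them for protons at the brush border. ATP-driven pumps of the brush border export further compounds: P-glycoprotein (Abcb1a and Abcb1b in the mouse) moves bulky hydrophobic drugs, MRP2 (Abcc2) conjugates with glutathione or glucuronic acid, MRP4 (Abcc4) cyclic nucleotides and organic anions, and BCRP (Abcg2) urate and sulphated conjugates. OCTN2 (Slc22a5) works in the opposite direction and reclaims carnitine from the filtrate with sodium, and OCTN1 (Slc22a4) carries ergothioneine.

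Array medians lay between 3.85 and 4.01 on the deposited log2 scale, and correlations between arrays ran from 0.90 to 0.96. Umod itself read 5.27 to 6.74 in wild-type arrays and 3.68 to 5.27 in knockout arrays, the groups touching at 5.27. The fitted value of knockout minus wild type was -1.52 ± 0.24 (SE, limma adjusted p = 0.281; two-sided exact permutation p = 0.00595, the smallest the arrays allow). The position of the probe set relative to the deletion was not known. The S3 marker Slc7a13, an amino acid carrier, read 9.73 to 11.54 in all arrays, while Slc22a6, an anion carrier typical of the S2 segment, was also present at 6.98 to 9.91. Of the 6 measured S3 markers 6 had a fitted value above 0 for knockout minus wild type (median 0.44), against 53.4% of all genes. Of the 7 measured S1 and S2 markers 6 had one below 0 (median -0.33). The largest value of an S3 marker was that of Slc22a7, 1.11 ± 0.34 (SE, limma adjusted p = 0.700). Among the S1 and S2 markers Slc22a8 was lowest, at -1.78 ± 0.44 (limma adjusted p = 0.586). Slc7a8, the S1 and S2 marker above 0, was at 0.43 ± 0.25. The mean of the S3 markers ran from 7.36 to 8.57 in wild type and from 7.98 to 9.18 in knockout, and that of the S1 and S2 markers from 5.09 to 6.36 and from 4.71 to 6.29. Knockout array 4 stood apart in its thick ascending limb markers, whose mean was 7.32 there and 5.39 to 6.22 in the other arrays, with the sodium-potassium-chloride carrier Slc12a1 at 10.05 against 7.54 or less elsewhere. It stood apart as well in distal tubule and collecting duct markers, whose mean was 6.52 there and 4.58 to 5.52 in the other arrays, with the water channel Aqp2 at 8.48 against 6.08 or less and the sodium-chloride carrier Slc12a3 at 9.08 against 7.24 or less. Endothelial markers, of interest because Abcb1a and Abcg2 are also made in capillaries, had means of 4.40 to 4.63 in wild type and 4.45 to 4.93 in knockout. The highest mean was in knockout array 4. Of the 8 measured, 8 had a fitted value above 0 for knockout minus wild type (median 0.11, smallest limma adjusted p = 0.871), as did 53.4% of all genes. In bulk tubule RNA, fewer cells of a type and less RNA per cell cannot be told apart. Xist, the transcript of the inactive X chromosome, lay below the lower quartile of its array in all 11 arrays (2.35 to 2.96), and the Y-linked Eif2s3y above the array median in all 11 (4.5 to 5.21). The Y-linked Kdm5d (3.20 to 4.16) lay above the array median in only 2 of 11 arrays, and Uty (3.23 to 3.47) in 0. The sex of the mice was not determined from these readings. As background, Slc22a2 is known to be expressed more in male than in female mouse kidney.

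Sequence upstream of the transcription start is shown for Slc22a2, the strongest signal, for Abcc2 and Abcg2, whose signals varied together, and for the paralogs Abcb1a and Abcb1b, whose signals were near the array medians. RefSeq windows on GRCm38.p6 matched 8 of the 9 genes, with 11 windows, since 3 starts are listed for Abcg2 and 2 for Abcc4. Each sequence is the 250 bases before the start, 5′ to 3′ on the gene's strand, and capitals mark matches to the motifs searched. For Abcg2 the middle of its 3 starts is printed, and which start is used in S3 cells was not measured.
Slc22a2, chr17:12583939-12584188 on the plus strand: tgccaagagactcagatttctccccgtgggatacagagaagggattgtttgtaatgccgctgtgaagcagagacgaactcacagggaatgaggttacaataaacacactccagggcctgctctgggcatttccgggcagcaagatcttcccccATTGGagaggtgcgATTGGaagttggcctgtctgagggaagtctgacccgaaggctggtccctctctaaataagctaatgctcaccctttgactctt
Abcc2, chr19:43782058-43782307 on the plus strand: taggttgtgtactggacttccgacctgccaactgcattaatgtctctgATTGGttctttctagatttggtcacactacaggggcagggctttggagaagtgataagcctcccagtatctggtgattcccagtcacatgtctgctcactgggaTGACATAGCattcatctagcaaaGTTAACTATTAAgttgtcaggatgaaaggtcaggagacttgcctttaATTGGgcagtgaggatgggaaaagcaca
Abcg2, chr6:58596422-58596671 on the plus strand: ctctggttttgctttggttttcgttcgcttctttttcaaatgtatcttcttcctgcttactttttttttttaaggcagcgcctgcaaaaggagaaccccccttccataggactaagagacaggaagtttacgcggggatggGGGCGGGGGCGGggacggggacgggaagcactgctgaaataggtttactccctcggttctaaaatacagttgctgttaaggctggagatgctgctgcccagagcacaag
Abcb1a, chr5:8566841-8567090 on the plus strand: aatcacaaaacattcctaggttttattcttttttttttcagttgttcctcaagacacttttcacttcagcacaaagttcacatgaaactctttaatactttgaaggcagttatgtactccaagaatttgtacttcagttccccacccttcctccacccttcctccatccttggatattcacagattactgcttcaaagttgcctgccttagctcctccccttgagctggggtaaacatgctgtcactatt
Abcb1b, chr5:8797897-8798146 on the plus strand: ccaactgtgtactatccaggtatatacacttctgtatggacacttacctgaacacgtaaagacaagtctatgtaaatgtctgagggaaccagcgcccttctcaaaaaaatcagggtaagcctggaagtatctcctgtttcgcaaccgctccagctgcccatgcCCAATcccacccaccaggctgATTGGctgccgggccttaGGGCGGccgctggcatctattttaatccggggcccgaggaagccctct

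The motifs, searched on both strands, included an HNF1 core, an HNF4 direct repeat and the core of the antioxidant response element, TGACNNNGC. The E-box was searched as CACGTG. The GC box searched, bound by factors of the Sp family, was GGGCGG. The other core promoter patterns were the TATA box, searched as TATAAA, and the CCAAT box by those letters. The HNF1 pattern was shortened from the longer consensus after the sequences had been seen. The share of all windows that hold it, given below, is therefore not a fair measure of how rare its Abcc2 match is. HNF1 is a transcription factor of proximal tubule and liver, and the antioxidant response element is bound by NRF2, whose known targets include pump genes. The Abcc2 window held the HNF1 core from 75 to 64 bases before the start, as GTTAACTATTAA, which 0.143% of all 32851 windows hold, and an antioxidant response element core from 98 to 90 bases before it, as TGACATAGC, which 10.2% hold. Both Abcc4 windows also held that element. The E-box lay in the Slc22a4 window, 228 to 223 bases before the start, and in 1 Abcc4 window, 205 to 200 bases before it, and 6.02% of windows hold it. Slc22a2, Abcb1b and Abcc2 each held a pair of CCAAT boxes (33.8% of windows hold at least 1). GC boxes, held by 32.7% of windows, lay in the windows of Slc22a4, Slc22a5 and Abcb1b, in 1 of 2 of Abcc4 and in 2 of 3 of Abcg2, and adjoining GC boxes lie in the printed Abcg2 window. Among the searched motifs the Abcb1a window held none. A match of letters is a description and does not show that a factor binds.

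Base composition separated the windows further. The G and C content was 51.6% for Slc22a2, 45.6% for Abcc2 and 40.4% for Abcb1a, against a median of 52.4% over all windows, and 71.2% for Slc22a4 and 73.6% for Slc22a5. CpG dinucleotides numbered 6 in the Slc22a2 window, 1 in that of Abcc2 and 0 in that of Abcb1a, against 26 and 30 in those of Slc22a4 and Slc22a5 and 9 in that of Abcb1b. The 2 windows of Abcc4 held 4 and 35, and the 3 of Abcg2 held 3, 10 and 23.

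The carriers of the cation relay gave strong signals. Slc22a2 (Entrez 20518) read 11.07, 10.98, 10.71, 10.59, 10.99 and 11.06 in wild-type arrays 1 to 6 and 10.99, 11.12, 11.20, 10.99 and 10.99 in knockout arrays 1 to 5. These values span 0.61 on the log2 scale, wild-type arrays 3 and 4 being the lowest, and the groups overlap. The wild-type mean was 10.90 ± 0.20 (SD, n = 6), and in each wild-type array Slc22a2 exceeded more than 99.6% of probes. Slc47a1 (Entrez 67473) read 8.46, 8.69, 8.48, 8.07, 8.11 and 8.52 in wild type and 8.27, 8.38, 8.47, 8.78 and 8.62 in knockout. Its wild-type mean was 8.39 ± 0.25 (SD, n = 6), its wild-type values lay at percentiles 98.0 to 98.5 of their arrays, and the groups overlap almost entirely.

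The carnitine and ergothioneine carriers gave intermediate signals with more spread. Slc22a5 (Entrez 20520) read 6.67, 6.73, 6.55, 5.99, 6.67 and 7.54 in wild type and 7.11, 5.70, 6.80, 7.02 and 7.47 in knockout, a span of 1.84. The highest value of each genotype was in batch 2, and the fitted batch term was 0.84 (batch 2 minus batch 1, limma adjusted p = 0.670 over all probes with Benjamini-Hochberg). The unadjusted p of this term was under 0.05 for Slc22a5 alone of the 9 genes, and for 6.56% of all probes. Slc22a4 (Entrez 30805) read 5.84, 5.64, 5.14, 5.01, 5.51 and 5.63 in wild type and 5.06, 4.56, 5.68, 5.88 and 5.83 in knockout. Knockout array 2 held the lowest value of both genes, and the groups overlap for both. Wild-type means were 6.69 ± 0.50 (SD, n = 6) for Slc22a5 and 5.46 ± 0.32 (SD, n = 6) for Slc22a4. These genes have a close relative, Slc22a21, whose own probe set had a wild-type mean of 3.48, and sharing of signal between relatives was not tested.

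Among the pumps, Abcc2 and Abcg2 stood well above the array medians. Abcc2 (Entrez 12780) read 8.37, 8.32, 8.30, 8.07, 8.26 and 8.44 in wild type and 8.22, 8.40, 8.73, 9.0 and 8.38 in knockout. The wild-type values kept within 0.37 of each other, with a mean of 8.29 ± 0.13 (SD, n = 6), and knockout arrays 3 and 4 lay above all of them. Abcg2 (Entrez 26357) read 7.68, 7.36, 6.89, 6.35, 6.52 and 7.36 in wild type and 6.89, 7.05, 7.96, 8.15 and 7.36 in knockout. The same knockout arrays 3 and 4 were highest here, array 4 being the one with high distal markers, wild-type arrays 4 and 5 were lowest, and the wild-type mean was 7.03 ± 0.53 (SD, n = 6).

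P-glycoprotein and MRP4 transcripts gave signals near the median of all probes. Abcb1a (Entrez 18671) read 4.5, 4.19, 4.27, 4.56, 4.97 and 4.46 in wild type and 4.66, 4.58, 5.10, 4.19 and 3.78 in knockout. Abcb1b (Entrez 18669) read 4.13, 4.27, 4.5, 4.11, 3.79 and 3.97 in wild type and 3.71, 3.96, 4.41, 4.16 and 4.68 in knockout. Abcc4 (Entrez 239273) read 3.93, 4.28, 3.93, 3.91, 3.93 and 3.89 in wild type and 3.95, 4.16, 3.60, 3.64 and 3.93 in knockout. The value was above the array's median in 10 of 11 arrays for Abcb1a, 8 of 11 for Abcb1b and 3 of 11 for Abcc4, and no measure of background was used, so these signals were not shown to be above background. Abcb1a and Abcb1b are close paralogs whose probe sets may share signal.

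**Figure D1:**
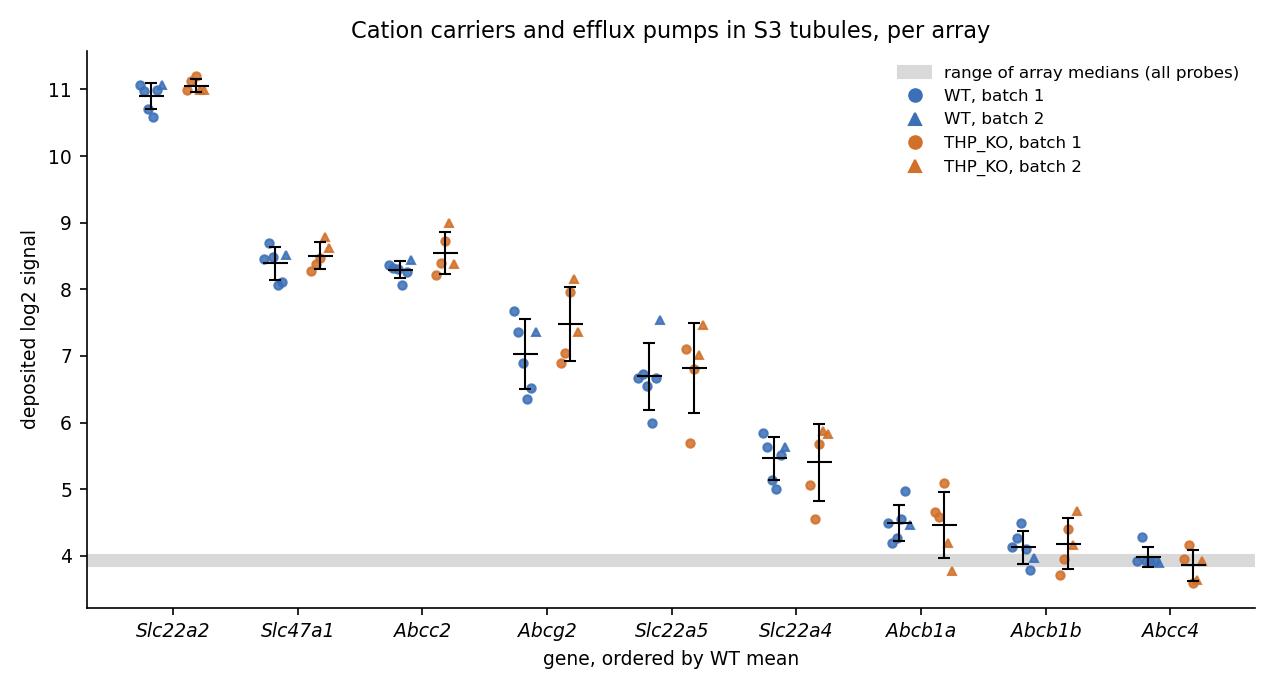
Deposited log2 signal of each of the 9 genes (y axis) in every array, with genes ordered along the x axis by wild-type mean. Each point is 1 array, coloured by genotype and shaped by batch; bars give the mean and SD of 6 wild-type and 5 knockout (THP_KO) arrays, and the grey band is the range of array medians, 3.85 to 4.01. Slc22a2 sits at 10.59 to 11.20 and Abcb1a, Abcb1b and Abcc4 near the band, and the genotypes overlap for every gene.

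By wild-type mean the order of signals was Slc22a2, Slc47a1, Abcc2, Abcg2, Slc22a5, Slc22a4, Abcb1a, Abcb1b and Abcc4. Probe sets differ in how strongly they bind their target, so this is an order of signals and says nothing of which transcript is more abundant. Slc22a2 over Slc47a1, Abcc2 over Abcg2, Slc22a5 over Slc22a4 and Slc22a4 over Abcb1a held in 6 of 6 wild-type arrays. Slc47a1 over Abcc2, Abcg2 over Slc22a5, Abcb1a over Abcb1b and Abcb1b over Abcc4 held in 4 of 6, and the wild-type ranges of these neighbours overlap. The wild-type mean exceeded the highest array median for 8 of the 9 genes and for 48.6% of all probes. In total 7 of the 9 genes were above the array median in each of the 6 wild-type arrays, Abcb1b in 5 and Abcc4 in 2.

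The genes also differed in how much they varied once genotype and batch were fitted. The residual SD was 0.17 for Slc22a2, 0.20 for Slc47a1, 0.22 for Abcc2 and 0.19 for Abcc4, against 0.53 for Abcg2, 0.45 for Slc22a5 and 0.40 for Slc22a4. Set beside the 1000 genes nearest in mean signal, Slc22a2 was at percentile 6.9 of residual SD, Slc47a1 at 13.3 and Abcc2 at 17.1, while Abcg2 was at 88.9, Slc22a4 at 84.8 and Slc22a5 at 83.9. Slc22a2 exceeded more than 99.6% of probes in each wild-type array, so most of the 1000 genes set beside it had lower signals. Its percentile is therefore not a comparison at its own signal level. Slc47a1 was steadier than most of the 1000 genes set beside it, and Abcg2 was more variable than most of its own. Slc47a1 and Abcc2 also lay near the top of the wild-type arrays, at percentiles 98.0 to 98.5 and 98.0 to 98.3. The limit stated for Slc22a2 may hold in part for their percentiles too.

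None of the 9 genes passed the test of a difference between genotypes, and the groups overlap for each of them, while 0.597% of all probes have groups that do not overlap. With limma, 0 of 9 passed an adjusted p of 0.05 over all 41345 probes, where 0% of probes did, and 0 of 9 had an unadjusted p under 0.05, where 6.16% of probes did (3.4% higher and 2.76% lower in knockout). Fitted values of knockout minus wild type were above 0 for 6 genes and below 0 for 3, with a median of 0.06, while 53.4% of all genes and 50.4% of all probes were above 0 and the median over genes was 0.015. The limma adjusted p, with Benjamini-Hochberg, ran from 0.856 to 0.993, and two-sided exact permutation tests, with genotype permuted inside each batch (168 arrangements, smallest possible p = 0.00595) gave p from 0.196 to 0.935. A test that misses its threshold does not show equal expression, and the 95% interval of each difference is given with it.

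For Slc22a2 the fitted log2 value of knockout minus wild type was 0.16 ± 0.13 (SE), with a 95% interval from -0.12 to 0.43, or 0.920- to 1.35-fold (exact permutation p = 0.196). It was 0.24 within batch 1 and -0.07 within batch 2. Once the segment score (S3 markers minus S1 and S2 markers) entered the fit, a fit chosen after seeing the data, the value was -0.020, with an interval from -0.31 to 0.27. With the mean of the proximal tubule markers as the covariate it was 0.14, with an interval from -0.14 to 0.42. Leaving out single arrays gave 0.10 (without wild-type array 4) to 0.24 (without wild-type array 6). For Slc47a1 it was 0.06 ± 0.14, with an interval from -0.25 to 0.36, or 0.843- to 1.28-fold (exact permutation p = 0.673). Leaving out single arrays gave 0.0060 (without wild-type array 4) to 0.12 (without wild-type array 2).

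For Slc22a4 the fitted log2 value was -0.18 ± 0.23 (SE), with an interval from -0.69 to 0.32, at -0.33 within batch 1 and 0.23 within batch 2. It was 0.032 without knockout array 2. Slc22a5 was at -0.07 ± 0.26, with an interval from -0.63 to 0.50, at 0.015 within batch 1 and -0.30 within batch 2, and at 0.20 without knockout array 2. Both changed sign without that array, which held the lowest value of each gene.

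Abcg2 had the largest fitted value of the 9 genes, 0.35 ± 0.30 (SE) on the log2 scale, with an interval from -0.30 to 1.01, or 0.814- to 2.01-fold (exact permutation p = 0.321). The within-batch values were 0.34 and 0.40. It was 0.13 without knockout array 3 and 0.27 without knockout array 4. Abcc2 was at 0.20 ± 0.14, with an interval from -0.11 to 0.52, or 0.923- to 1.43-fold, at 0.19 within batch 1 and 0.25 within batch 2, and at 0.11 without knockout array 3 and 0.13 without knockout array 4. With the mean of the proximal tubule markers as a covariate, a fit chosen after seeing the data, Abcg2 was at 0.23, with an interval from -0.052 to 0.52, and Abcc2 at 0.16. With the segment score in its place Abcg2 was at 0.14, with a wider interval from -0.67 to 0.94, and Abcc2 at 0.077, with an interval from -0.31 to 0.46.

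Abcb1a was at 0.08 ± 0.20 (SE), but its within-batch values had opposite signs, 0.28 in batch 1 and -0.48 in batch 2. Abcb1b was at 0.02 ± 0.19, with -0.13 in batch 1 and 0.45 in batch 2. The 95% intervals ran from -0.35 to 0.52 for Abcb1a and from -0.40 to 0.44 for Abcb1b. Abcc4 was at -0.10 ± 0.13, with an interval from -0.39 to 0.20. Batch 2 holds only 1 wild-type array, so its values carry no test.

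**Figure D2:**
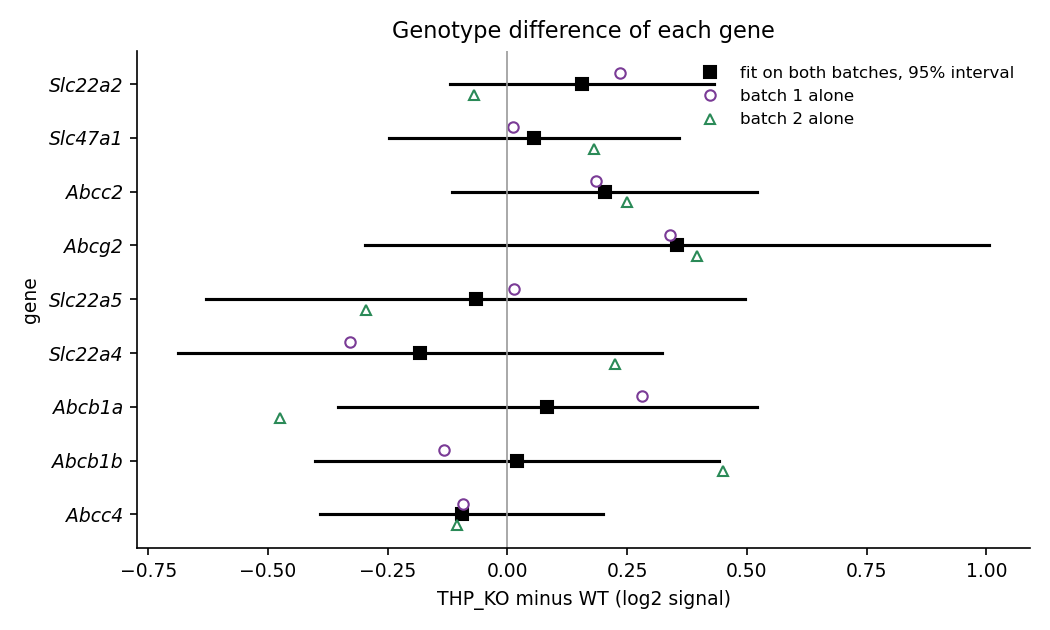
Knockout minus wild type on the log2 scale (x axis) for each gene (y axis). Squares with bars are the fit on both batches with its 95% interval, open circles batch 1 alone and open triangles batch 2 alone; every interval crosses 0, and that of Abcg2, -0.30 to 1.01, is the widest.

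Variation between arrays was shared by several of the genes. Over the 11 arrays, 54 relations were computed: 36 pairs among the 9 genes, and each gene against a proximal tubule score (the mean of 7 markers, among them the endocytic receptors Lrp2 and Cubn) and against the S3 minus S1 and S2 score. By permutation tests with Benjamini-Hochberg adjustment over these, 6 passed 0.05 by Pearson's r and 3 by Spearman's rho.

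Abcg2 followed the proximal tubule score most closely, with r = 0.93 (permutation p = 7.0e-05, adjusted p = 0.00216) and rho = 0.89 (p = 0.00059, adjusted p = 0.0246). It was 0.91 within the 8 arrays of batch 1, 0.89 without the 2 arrays farthest from the median of Abcg2 and 0.92 without knockout array 4. Batch 2, with 3 arrays, is too small for a value. An r at least as high with this score was found for 0.0676% of the 22180 genes. Abcc2 and Slc47a1 had r = 0.76 and 0.81 with the same score (permutation p = 0.00287 and 0.00261, adjusted p = 0.0310 for both), with rho = 0.66 and 0.73 (p = 0.0298 and 0.0143, adjusted p = 0.142 and 0.0963). Of all genes, 3.14% had an r with this score at least as high as that of Abcc2 and 1.73% as high as that of Slc47a1. Without the 2 farthest arrays these r fell to 0.58 and 0.61, and within batch 1 they were 0.70 and 0.77. The score was lowest in wild-type arrays 4 and 5, at 9.46 and 9.38, and highest in knockout arrays 3 and 4, at 9.98 and 10.02, the same arrays that were lowest and highest for Abcg2. The array median over all probes ran the other way. It was highest in wild-type arrays 4 and 5, at 3.99 and 4.01, and among the lowest in knockout arrays 3 and 4, at 3.89 and 3.85. These relations are given on the deposited signals, without quantile normalization. Whether array-wide differences in signal account for them was not tested.

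Abcc2 and Abcg2, whose upstream sequences are printed above, varied together across arrays, with r = 0.88 (permutation p = 8.0e-05, adjusted p = 0.00216) and rho = 0.86 (p = 0.00091, adjusted p = 0.0246). The r was 0.85 within batch 1, 0.80 without the 2 arrays farthest from the median of Abcc2, 0.82 after genotype and batch were fitted and 0.71 after the proximal tubule score was regressed out of both. Slc47a1 and Abcg2 had r = 0.82 (p = 0.00223, adjusted p = 0.0310) and rho = 0.73 (p = 0.0136, adjusted p = 0.0963), with 0.74 within batch 1, 0.60 without the 2 farthest arrays and 0.28 after the score was regressed out. Slc22a4 and Abcg2 passed by rank alone, with rho = 0.83 (p = 0.00223, adjusted p = 0.0401) and r = 0.65 (p = 0.0296, adjusted p = 0.160), with r = 0.57 within batch 1 and 0.71 without the 2 farthest arrays.

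Slc22a2 was related to the balance of segment markers by Pearson's r, but did not pass by rank. Its r with the S3 minus S1 and S2 score was 0.76 (permutation p = 0.00555, adjusted p = 0.0499) and its rho 0.77 (p = 0.00657, adjusted p = 0.0731), with r = 0.88 within batch 1 and 0.60 without the 2 arrays farthest from the median of Slc22a2. Its r with the proximal tubule score was 0.38 (p = 0.255, adjusted p = 0.492), with a rho of 0.27 (p = 0.426, adjusted p = 0.575). Whether these scores account for the array-to-array spread of the carriers was not tested, nor whether the r of Slc22a2 differs between the scores. The r with the scores was not computed after genotype and batch were fitted.

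**Figure D3:**
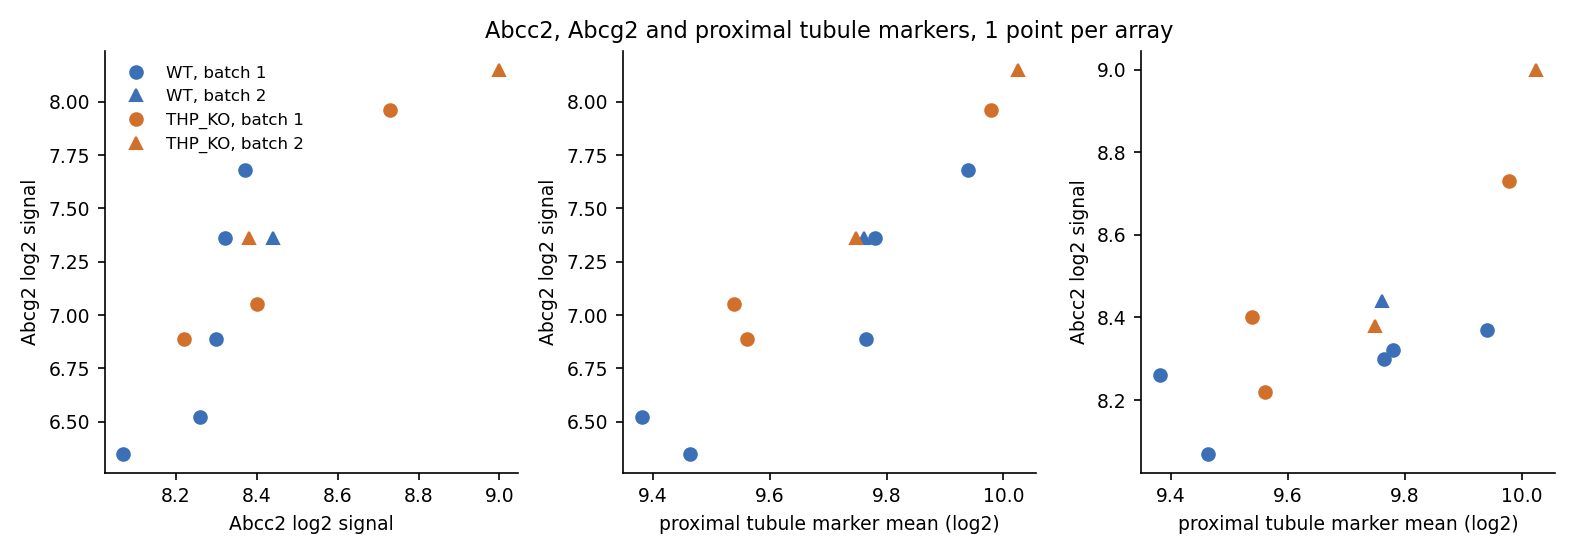
Log2 signal of Abcg2 (y axis) against that of Abcc2 (left), and of Abcg2 (centre) and Abcc2 (right, y axes) against the mean log2 signal of 7 proximal tubule markers (x axis), 1 point per array, coloured by genotype and shaped by batch. Knockout arrays 3 and 4 are at the upper right of each panel, and r is 0.88, 0.93 and 0.76 from left to right.

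The genes most like each carrier in residual pattern were listed from 12684 genes above the median probe in wild type, over 11 arrays with genotype and batch removed. So large a search over so few arrays returns high values for any gene, and none has a test. Abcg2 was closest to Dbt, a subunit of the branched-chain keto acid dehydrogenase (r = 0.99), and to the transaldolase Taldo1 (0.98). Abcc2 was closest to the phosphoglycerate mutase Pgam1 (0.98) and to Pts (0.98), an enzyme of tetrahydrobiopterin synthesis. Slc47a1 was closest to the small GTPase Arl3 (0.99) and Maco1 (0.95), and Slc22a2 to the lipoprotein receptor gene Lsr (0.96) and Socs5 (0.93), a suppressor of cytokine signalling. Slc22a4 was closest to the chaperone adaptor Stip1 (0.96) and Cd101 (0.94), and Slc22a5 to the histone methyltransferase Kmt2b (0.95) and Cbfa2t2 (0.94). The dim genes had Exoc2 and Chst3 (Abcb1a, 0.94 and 0.91), Nptx2 and 4933409K07Rik (Abcb1b, both 0.88) and Abhd12b and Zfp641 (Abcc4, both 0.94).

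Related carriers and pumps were described from lists chosen with earlier results of these data known. None of the 53 measured genes in these 6 lists passed the limma threshold. An unadjusted p under 0.05 was found for 6 of the 53, a larger share than the 6.16% of all probes. Of these 6, 3 were among the 8 carnitine synthesis and shuttle genes. No test of a list as a set was run. Among 14 other cation and carnitine transporters 12 were measured, with 8 fitted values above 0, a median log2 value of 0.03 and 0 unadjusted calls. The smallest p belonged to the choline transporter-like Slc44a4 (0.27 ± 0.21, SE), the carnitine carrier Slc22a16 (-0.14 ± 0.14) and the choline carrier Slc44a1 (0.12 ± 0.16). Slc47a2, the other MATE gene and chosen after its values were seen, had means of 3.85 ± 0.08 (wild-type SD) and 3.84 ± 0.16 (knockout SD). Of 11 other ABC transporters 5 were above 0, with a median of -0.06, which changed sign to 0.038 without wild-type array 4, and 0 unadjusted calls. The smallest p belonged to Abcc10 (0.21 ± 0.10), the mitochondrial Abcb8 (0.19 ± 0.14) and the phospholipid flippase Abcb4 (-0.23 ± 0.23).

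Apical scaffold proteins anchor carriers to the brush border. Of the 6 measured, 5 were above 0 with a median log2 value of 0.19. That median was 0.080 without knockout array 4, 0.087 without wild-type array 6 and 0.11 without knockout array 3. The PDZ protein Slc9a3r1 (NHERF1), with means of 7.40 ± 0.15 (wild-type SD) and 7.66 ± 0.22 (knockout SD), had the smallest p (0.29 ± 0.13, SE, limma adjusted p = 0.809). The membrane linkers Msn and Ezr were at 0.27 ± 0.20 and 0.22 ± 0.25. For proteins that set the ion gradients, 3 of 6 were above 0 and the median was -0.01, with the sodium-proton exchanger Slc9a8 at 0.52 ± 0.27, the potassium channel Kcnj16 at -0.29 ± 0.20 and the sodium pump subunit Fxyd2 at 0.30 ± 0.25.

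Of 10 measured genes listed for the control of drug transporter genes, mostly transcription factors, 6 were above 0 and the median was 0.01. The pregnane X receptor Nr1i2 had the values 4.43, 5.34, 4.44, 4.70, 4.66 and 4.67 in wild type and 4.51, 4.05, 4.32, 3.85 and 4.44 in knockout, a fitted log2 value of -0.45 ± 0.19 (SE, limma adjusted p = 0.792). The glucocorticoid receptor Nr3c1 had 5.95, 6.03, 5.87, 5.81, 5.62 and 5.62 in wild type and 5.58, 5.28, 5.27, 5.62 and 5.62 in knockout, at -0.35 ± 0.13 (limma adjusted p = 0.761), with -0.48 in batch 1 and 0.00 in batch 2. Neither passed over all probes, and the groups touch or overlap for both. Nfe2l2, which encodes NRF2, was at 0.28 ± 0.16 (adjusted p = 0.826). Carnitine synthesis and shuttle genes, which make or use the substrate of Slc22a5, had 7 of 8 above 0 and a median of 0.20. That median was 0.078 without wild-type array 6, 0.12 without knockout array 3 or 4, and 0.31 without knockout array 1. The peroxisomal Crot (0.86 ± 0.32), the mitochondrial Cpt2 (0.49 ± 0.21) and the carnitine-acylcarnitine carrier Slc25a20 (0.39 ± 0.17) had limma adjusted p from 0.765 to 0.797, while Slc22a5 itself was at -0.07. The S3 markers, which also had fitted values above 0, are given with the arrays, and their part in these values was not tested.

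**Figure D4:**
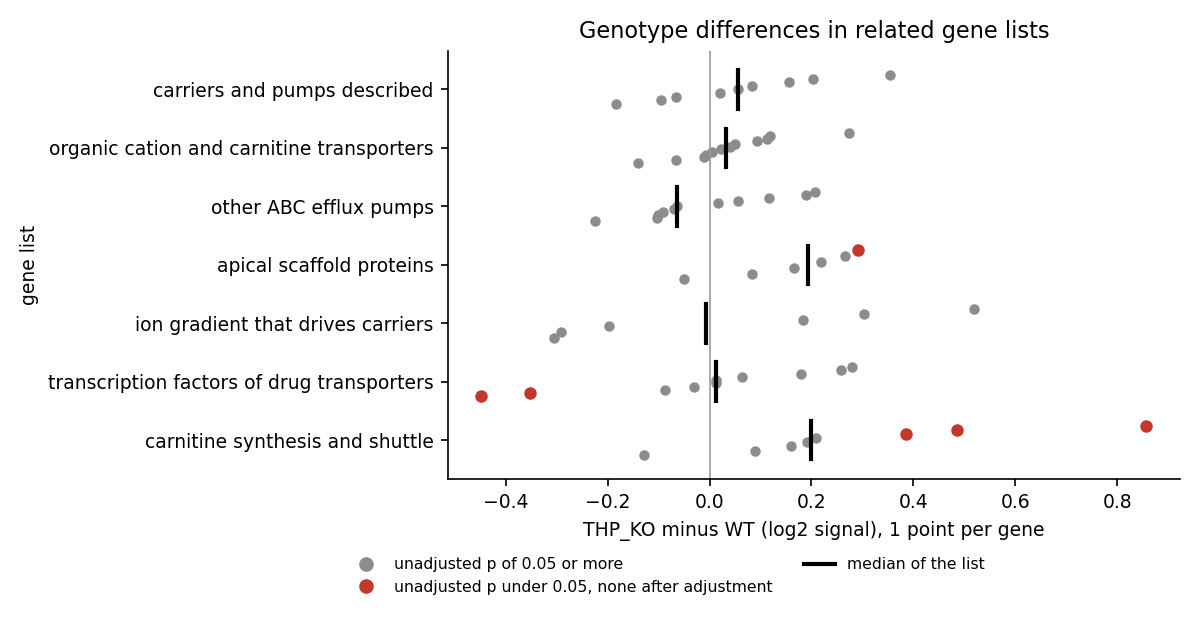
Knockout minus wild type on the log2 scale (x axis) for the 9 genes described and for 6 related lists (y axis), 1 point per measured gene, with a black bar at each list's median. Red points have an unadjusted limma p under 0.05 (6 genes, Crot at 0.86 being the highest and Nr1i2 at -0.45 the lowest), and none passes after adjustment over all probes.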

How the data were processed

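The deposited log2 signals of 41345 probe sets on 11 arrays were used as the authors gave them. Per the submitters' processing notes these came from Partek 6.6 and RMA, and genome build, filters and any batch correction before deposit are not given in the sources used here. Members and lists were chosen with earlier results of these data known. Probe sets with 1 gene symbol numbered 23521, with several 1814 and with none 16010, and the brightest of each gene on average was used, giving 22180 genes. Genotype and batch were fitted with limma 3.58.1 (R 4.3.3), with p-values adjusted by Benjamini-Hochberg over the whole table (called under 0.05). This was tested on simulated data. Members were also given two-sided exact permutation tests within batches, and correlations had 100000 permutations (Python 3.11.15, scipy 1.17.1). Figures used matplotlib 3.10.9. Genes named were the 9 members, Umod, up to 3 genes of smallest p in each related list and the 2 genes most like each member; others named are markers, close relatives or were chosen after their values were seen. Replicate numbers did not pair arrays. Alternatives covered batch terms, replicate blocks, filters, normalization, array weights, the prior, probe choice, the threshold and leaving out each array. Fits with marker scores as covariates were chosen after seeing the data. The number of arrays limits the precision.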

Additional observations from a re-analysis of the deposited data

Results flagged for a closer look

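Among 56 groups of arrays (28 genes, each in wild type and in knockout), 5 held a value far from the rest of its group by Dixon's criterion, which chance meets in about 1 in 20 groups. Abcc4 read 4.28 in wild-type array 2 and 3.89 to 3.93 in the other wild-type arrays. Wild-type array 2 also held the high values of the membrane linker Ezr (6.86, the others 5.96 to 6.27) and of the pregnane X receptor Nr1i2 (5.34, the others 4.43 to 4.70). The scaffold gene Slc9a3r1 read 7.69 in wild-type array 3 and 7.29 to 7.41 in the others. The carnitine-acylcarnitine carrier Slc25a20 read 6.66 in knockout array 3 and 6.26 to 6.37 in the other knockout arrays.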

How the results depend on the processing

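Of 248 alternative values for the 9 genes, 220 kept their direction without passing the threshold and 27 changed sign. The smallest limma adjusted p was 0.704, and 0 of the 9 genes passed under any setting run for them. The filters, the other prior, 1 probe per gene, the mean of all probe sets and the threshold of 0.1 left the fitted values unchanged. Their direction under these settings was fixed in advance, yet is counted among the 220. Leaving out wild-type array 6 repeated the fitted values of batch 1 alone. For the related lists only the fits without a batch term, with quantile normalization and without single arrays were run, and 0 of their genes passed in these. Abcc2 kept its sign in all 28 (0.08 to 0.28), the settings that could not change it included. The count of probes past the threshold, 0, became 3 in batch 1 alone, 2 with signals above 5 in at least 5 arrays, 1 with 1 probe per gene, 4 at a threshold of 0.1, and 0 to 11 without single arrays (11 without knockout array 5). Signs changed as follows, and the cause was not tested. Without a batch term Slc22a5 was 0.13 and Abcb1a -0.030, and with batch as a random block 0.15 and -0.042. In batch 1 Slc22a5 was 0.015 and Abcb1b -0.13. In batch 2 Slc22a2 was -0.07, Slc22a4 0.23 and Abcb1a -0.48, and Abcb1b moved to 0.45. Replicate numbers did not pair arrays (correlations -0.18 to 0.01). With the replicate block Slc22a5 was 0.30 and Abcb1a -0.036, and with the replicate block and batch term Slc47a1 was -0.17, Abcb1b -0.27 and Abcg2 -0.01. Quantile normalization gave Slc47a1 -0.053 and moved Abcc2 to 0.084, Abcg2 to 0.25 and Slc22a5 to -0.15. The S3 score as a covariate gave Slc22a2 -0.020 and Abcb1a -0.13 and moved Abcg2 to 0.14, Abcc2 to 0.077, Slc22a4 to -0.28 and Abcb1b to 0.15, and the proximal tubule score Abcb1b -0.017. Without wild-type array 5 Abcb1b was -0.037, and without wild-type array 6 it was -0.13 and Slc22a5 0.015. Without knockout array 2 Slc22a4 was 0.032 and Slc22a5 0.20, without array 3 Abcb1a was -0.068, Abcb1b -0.078 and Abcc4 0.0068, and without array 5 Abcb1b was -0.065. Leaving out single arrays, values ran from -0.35 to 0.032 for Slc22a4, 0.10 to 0.24 for Slc22a2, 0.0060 to 0.12 for Slc47a1, 0.11 to 0.28 for Abcc2, 0.13 to 0.50 for Abcg2, -0.28 to 0.20 for Slc22a5, -0.068 to 0.28 for Abcb1a, -0.13 to 0.16 for Abcb1b and -0.18 to 0.0068 for Abcc4. Without single arrays the medians of the related lists ran from -0.014 to 0.053 (cation and carnitine transporters), -0.11 to 0.038 (ABC pumps), 0.080 to 0.28 (scaffolds), -0.17 to 0.25 (ion gradients), -0.027 to 0.042 (transcription factors) and 0.078 to 0.31 (carnitine genes). Filters on dim probes left out Abcc4 (both filters), Abcb1a and Abcb1b. The order of wild-type signals was the same under its 10 alternatives, of which median centring and the mean of all probe sets could not change it.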

Other observations

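Exact ties at the middle of a probe's values were common in the deposited table. Slc22a2 read 10.99 in 4 of 11 arrays, Abcc4 read 3.93 in 4 and Abcg2 read 7.36 in 3, and in each case that value was the gene's median over the 11 arrays. Over all 41345 probes, 26.2% had 3 or more arrays at the median value (the 6th of the 11 ranked values), against 2.72% at the value of rank 3 and 2.55% at that of rank 9. Values are deposited to the nearest hundredth. The tied arrays come from both genotypes and both batches for Slc22a2, Abcc4 and Abcg2, and the effect of the ties on the estimated spread was not tested.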
